A study of Rattus norvegicus with 18 samples.

Results

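Gene expression was measured for 10 genes of the NF-kB pathway in cultured rings of rat aorta: Relb, Nfkbia, Nfkbiz, Bcl3, Tnip1, Ripk2, Traf1, Birc3, Cflar and Zfp36. They were chosen by name as NF-kB subunits, inhibitors and targets, and every probe set annotated to 1 of these genes alone was included. That gave 15 probe sets of the 31142 non-control probe sets on the 2 array types, the Affymetrix RAE230A (array A) and RAE230B (array B). Array A carried 6 of them, for Relb, Nfkbia, Tnip1, Birc3, Cflar and Zfp36, and array B carried 9, for Nfkbiz, Bcl3, Cflar, Traf1 and Ripk2. A filter on low signal left all 6 for testing on array A but 6 of the 9 on array B, so that each of the 10 genes had at least 1 tested probe set.

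All rings came from the thoracic aorta of 3 male Fisher 344 rats aged 5 weeks, cut 2 mm wide and kept for 14 days in serum-free EBM medium. On day 13 rings were given human VEGF, the vascular endothelial growth factor, at 10 ng/ml, or human Ang1 (angiopoietin-1) at 100 ng/ml together with a poly-His antibody at 5 µg/ml, both as recombinant protein, or were kept in medium alone (untreated). Only the Ang1 group received the antibody, so that Ang1 and the antibody cannot be told apart. Rings were harvested for RNA after 20 h of treatment according to the labels, or 18 h according to the design text, each RNA from 4 to 6 pooled rings. The 9 RNAs, 3 in each group, were each hybridised to both array types, which makes 18 samples. The rings hold several cell types, and in such bulk RNA fewer cells of a type and less RNA per cell cannot be told apart.

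NF-kB transcription factors are dimers that are held in the cytoplasm of resting cells by inhibitor proteins. Receptors for cytokines and microbial products activate a kinase complex that marks the inhibitor for destruction, and the freed dimer then enters the nucleus. Among the genes it switches on are those of its own inhibitors, which close a feedback loop, and those of proteins that protect cells from death. In the vessel wall this pathway is known for the inflammatory activation of endothelium, and Ang1, the ligand of the receptor Tie2 (gene Tek), is known to restrain it there.

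The promoters of these genes are shown because NF-kB dimers bind kB-type sequences, which were searched for there. RefSeq's promoter table (build GRCr8) held 7 of the 10 genes, namely Nfkbia, Nfkbiz, Bcl3, Tnip1, Cflar, Traf1 and Zfp36. Of these 7, 4 held the motif of GGG, any 3 bases and TTCC within 250 bases before the start (Nfkbia, Nfkbiz, Tnip1 and Traf1), on either strand, against 4.53% of all 33469 promoters of the same length. The NF-kB consensus, which overlaps with that sequence, was found in 4 of 7 (Nfkbia, Nfkbiz, Bcl3 and Tnip1) against 6.33% of all promoters. Either was found in 5 of 7 against 8.58%. The genes were chosen by name as NF-kB genes, known targets among them, so that these higher shares follow in part from the choice. The 120 bases before the start are printed for these 5 genes and for Zfp36, which had the largest difference of the 10 genes, 5′ to 3′ on the gene's strand, with the motif matches in capitals.
Nfkbia, chr6:78597073-78597192, minus strand: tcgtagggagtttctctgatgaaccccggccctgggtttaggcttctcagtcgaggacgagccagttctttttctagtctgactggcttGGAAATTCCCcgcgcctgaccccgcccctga
Nfkbiz, chr11:58251601-58251720, plus strand: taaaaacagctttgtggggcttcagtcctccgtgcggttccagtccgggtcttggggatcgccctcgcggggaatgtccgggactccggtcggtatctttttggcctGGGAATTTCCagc
Bcl3, chr1:88613556-88613675, minus strand: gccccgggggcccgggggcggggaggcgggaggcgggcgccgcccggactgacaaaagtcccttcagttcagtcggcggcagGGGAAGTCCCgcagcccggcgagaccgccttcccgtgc
Tnip1, chr10:39584962-39585081, minus strand: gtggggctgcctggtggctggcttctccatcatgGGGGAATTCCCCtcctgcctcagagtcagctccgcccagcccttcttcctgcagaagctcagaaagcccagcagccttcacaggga
Traf1, chr3:38635771-38635890, minus strand: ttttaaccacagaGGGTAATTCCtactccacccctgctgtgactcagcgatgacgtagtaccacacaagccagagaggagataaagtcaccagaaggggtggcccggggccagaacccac
Zfp36, chr1:92799109-92799228, minus strand: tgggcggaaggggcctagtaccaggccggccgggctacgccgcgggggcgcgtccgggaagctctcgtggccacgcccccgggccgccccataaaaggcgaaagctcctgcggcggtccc
The match lay 31 to 22 bases before the start in Nfkbia, 13 to 4 in Nfkbiz, 38 to 29 in Bcl3, 86 to 75 in Tnip1 and 107 to 98 in Traf1. In the windows of Zfp36 and Cflar neither motif was found, which says only that these letters were not in the window.

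Levels are given as log2(signal + 16) after quantile normalisation of the 9 arrays of a type, and differences are on that log2 scale, which understates the change of dim probe sets. Of the 9 RNAs, 2 stood apart on both array types: the median correlation with the other arrays was 0.69 (array A) and 0.43 (array B) for Ang1 replicate 2 and 0.79 and 0.75 for untreated replicate 2, against 0.87 to 0.94 and 0.81 to 0.87 for the other 7. Untreated replicate 1 was labelled by a 2-cycle procedure and the others by the standard one. On array B, Ang1 replicate 3 had been scaled to a trimmed mean of 94.8, against about 250 on the other 17 arrays. Smooth muscle (7 of 8), endothelial (8 of 10), fibroblast (7 of 7) and macrophage markers (8 of 11) were above the filter on array A. No listed marker present on an array type was at 0 there on its brightest probe set, which does not show that it was detected. The neutrophil markers on array A and the dendritic marker on array B, all under the filter, met this too. Neither the 9520 probe sets tested on array A nor the 9166 on array B held any past an adjusted p of 0.05 in any of the 3 comparisons (0%, limma with Benjamini-Hochberg adjustment). Over both treated groups set against untreated, and VEGF against Ang1, none of the 12 tested probe sets of the 10 genes passed either. The values below therefore describe levels and differences that did not pass the adjusted test. Each p-value sets a difference between groups against the spread between samples within the groups. At an unadjusted p below 0.05, 302 of 9520 probe sets (3.17%, array A) and 960 of 9166 (10.5%, array B) differed between Ang1 and untreated, 157 (1.65%) and 66 (0.72%) between VEGF and untreated, and 189 (1.99%) and 777 (8.48%) between VEGF and Ang1.

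**Figure D1:**
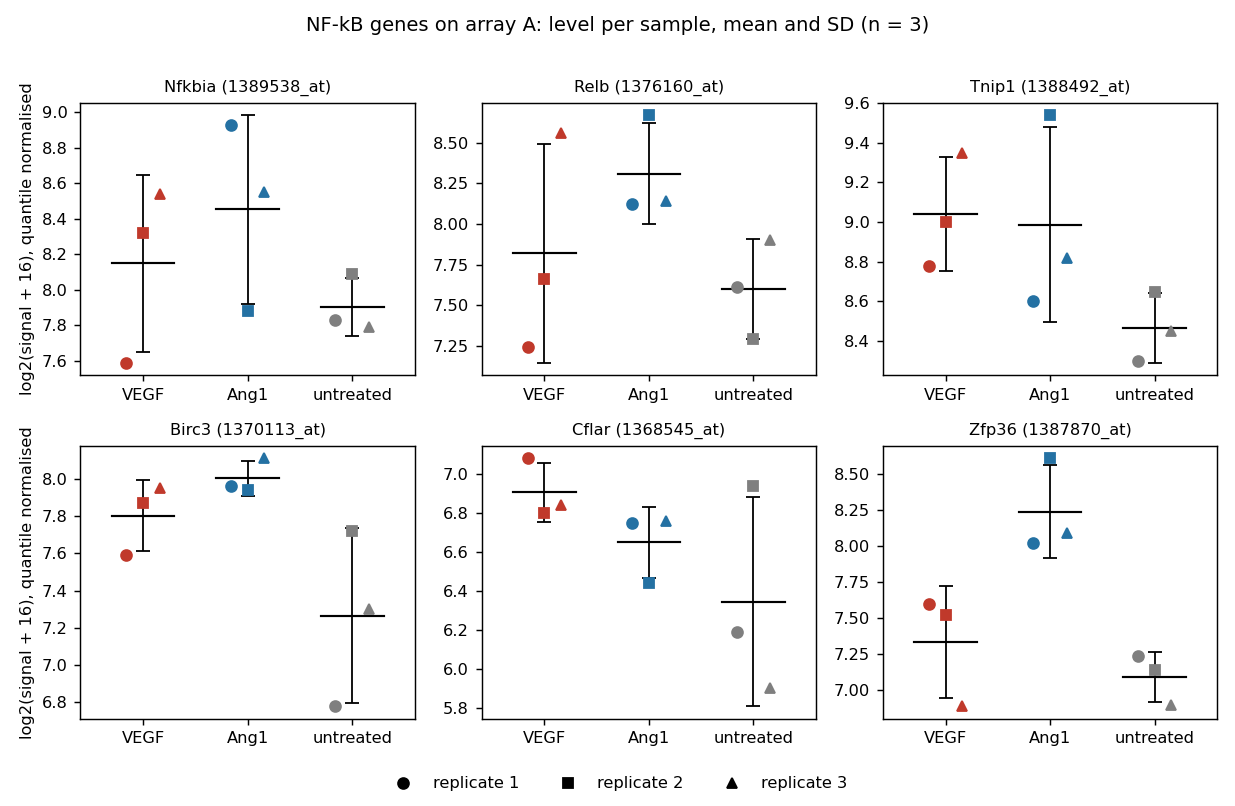
Levels of the 6 genes on array A in log2(signal + 16) on the vertical axes, which do not start at 0, with 1 point per sample, a line for the group mean and a bar for the SD (n = 3). For Zfp36 the VEGF samples sit between 6.89 and 7.60, below the 3 Ang1 samples (8.02 to 8.61), which are also above all untreated samples (6.90 to 7.24), and for Tnip1 the VEGF samples (8.78 to 9.35) sit above the untreated ones (8.30 to 8.65).

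Zfp36, which encodes tristetraprolin, a protein that binds and destabilises the mRNAs of cytokines such as Tnf, had the largest difference of the 10 genes. Its level was 7.60, 7.52 and 6.89 in the VEGF samples, 8.02, 8.61 and 8.09 in the Ang1 samples, and 7.24, 7.14 and 6.90 in the untreated samples. Every Ang1 sample lay above every VEGF and every untreated sample, whereas the VEGF and untreated ranges overlapped. The group means were 7.34 ± 0.39 after VEGF, 8.24 ± 0.32 after Ang1 and 7.10 ± 0.17 without treatment (SD, n = 3 each). Ang1 exceeded untreated by 1.14 ± 0.30 (SE), a 2.21-fold higher level with a 95% interval of 0.47 to 1.81 on the log2 scale (unadjusted p = 0.00325, adjusted p = 0.953, limma). VEGF differed from untreated by 0.24 ± 0.30 (unadjusted p = 0.445). In the direct comparison VEGF minus Ang1 came to -0.90 ± 0.30, with an interval of -1.57 to -0.23 (unadjusted p = 0.0129, adjusted p = 0.972, limma). Without the 2 libraries that stood apart the Ang1 difference was 1.03 (unadjusted p = 0.00871) and that of VEGF minus Ang1 was -0.75 (unadjusted p = 0.0265).

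Relb, the NF-kB subunit of the non-canonical pathway, had its highest mean after Ang1. It read 7.24, 7.66 and 8.56 after VEGF, 8.12, 8.67 and 8.14 after Ang1, and 7.61, 7.29 and 7.90 in untreated rings. All Ang1 samples were above all untreated samples, whereas of the VEGF samples replicate 1 was below, replicate 2 within and replicate 3 above the untreated range. Ang1 exceeded untreated by 0.71 ± 0.37, a 1.64-fold higher level (unadjusted p = 0.0832, adjusted p = 0.953, limma), and VEGF by 0.22 ± 0.37 (unadjusted p = 0.573). Without the 2 libraries that stood apart the Ang1 difference was 0.39 (unadjusted p = 0.367).

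Nfkbia encodes IkB-alpha, the inhibitor that retains NF-kB dimers in the cytoplasm and that NF-kB itself induces. Its level was 7.59, 8.32 and 8.54 in the VEGF samples, 8.93, 7.88 and 8.55 in the Ang1 samples and 7.83, 8.09 and 7.79 in the untreated samples. VEGF replicate 1 was below every untreated sample and Ang1 replicate 2 lay within the untreated range, while the other 4 treated samples were above it. Nfkbia differed by 0.55 ± 0.36 after Ang1 (interval -0.24 to 1.34, unadjusted p = 0.151) and by 0.25 ± 0.36 after VEGF (interval -0.54 to 1.03, unadjusted p = 0.504). With Ang1 replicate 2 and untreated replicate 2 left out the Ang1 difference was 0.95 (unadjusted p = 0.024, adjusted p = 1, limma), whereas without Ang1 replicate 1 it was 0.31 (unadjusted p = 0.441). The VEGF difference was 0.52 without VEGF replicate 1 and 0.05 without VEGF replicate 3.

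Nfkbiz and Bcl3 encode nuclear relatives of IkB-alpha that bind NF-kB dimers on DNA and can activate as well as inhibit transcription. For Nfkbiz, probe set 1378032_at read 9.85, 9.29 and 8.75 after VEGF, 9.70, 7.40 and 10.12 after Ang1, and 8.71, 8.97 and 8.58 without treatment. Ang1 replicates 1 and 3 were above every untreated sample, and Ang1 replicate 2 was below every one. The difference was 0.54 ± 0.62 after VEGF (unadjusted p = 0.402) and 0.32 ± 0.62 after Ang1 (unadjusted p = 0.618), and the 95% interval for Ang1 spanned -1.05 to 1.69. This value rests on single libraries: it was 1.22 without Ang1 replicate 2 (unadjusted p = 0.00762, adjusted p = 0.621, limma), 0.00 without Ang1 replicate 1 and -0.21 without Ang1 replicate 3. The second Nfkbiz probe set, 1380798_at, was under the filter, with 5.96 to 7.08 after VEGF, 5.61 to 7.72 after Ang1 and 5.78 to 6.14 in untreated rings. There Ang1 replicate 2 was the highest of the 9 samples, whereas it was the lowest on the brighter probe set, so the 2 probe sets disagreed in that library.

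Of the 3 Bcl3 probe sets, 2 were tested, and they gave different pictures. Probe set 1385627_at read 8.0, 7.78 and 8.51 after VEGF, 8.63, 9.66 and 8.69 after Ang1, and 8.01, 8.09 and 8.31 in untreated rings. On it every Ang1 sample exceeded every VEGF and every untreated sample. The Ang1 difference was 0.85 ± 0.36, a 1.81-fold higher level with an interval of 0.06 to 1.65 (unadjusted p = 0.0377, adjusted p = 0.466, limma). It was 0.54 without Ang1 replicate 2 (unadjusted p = 0.0966), and with the replicate number as a block the unadjusted p was 0.0505.

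On the same Bcl3 probe set VEGF minus untreated was -0.04 ± 0.36, and VEGF minus Ang1 was -0.90 ± 0.36 (unadjusted p = 0.0308, adjusted p = 0.561, limma). With Ang1 replicate 2 and untreated replicate 2 left out these differences were -0.07 (unadjusted p = 0.824) and -0.58 (unadjusted p = 0.0847), and Ang1 minus untreated was 0.51 (unadjusted p = 0.154). The unadjusted p of VEGF minus Ang1 was also 0.0819 without VEGF replicate 1, 0.114 without VEGF replicate 2 and 0.461 with values as deposited (difference -0.42). The other tested Bcl3 probe set, 1398482_at, read 6.97, 7.10 and 7.26 after VEGF, 7.36, 5.21 and 7.53 after Ang1, and 6.33, 6.39 and 6.74 without treatment. Here all VEGF samples were above all untreated samples, as were Ang1 replicates 1 and 3, while Ang1 replicate 2 was the lowest of the 9. The differences were 0.62 ± 0.56 for VEGF (1.54-fold, unadjusted p = 0.293) and 0.21 ± 0.56 for Ang1 (unadjusted p = 0.712). Without the 2 libraries that stood apart the Ang1 difference was 0.89 (unadjusted p = 0.0262, adjusted p = 0.835, limma). The dimmest, 1380414_at, was under the filter, with 5.18 to 5.86 after VEGF, 5.31 to 5.53 after Ang1 and 5.02 to 5.22 in untreated rings.

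Tnip1 encodes a ubiquitin-binding partner of the deubiquitinating protein A20 that restrains signalling to NF-kB. It read 8.78, 9.00 and 9.35 after VEGF, 8.60, 9.54 and 8.82 after Ang1, and 8.30, 8.65 and 8.45 without treatment. The VEGF samples did not overlap with the untreated ones, and of the Ang1 samples replicate 1 alone lay within the untreated range. The differences were 0.57 ± 0.32 for VEGF (1.49-fold, unadjusted p = 0.0991) and 0.52 ± 0.32 for Ang1 (1.43-fold, unadjusted p = 0.133). The Ang1 value was 0.25 without Ang1 replicate 2 (unadjusted p = 0.423), while the VEGF value ranged from 0.43 to 0.70 over the alternatives tried. VEGF minus Ang1 was 0.06, with an interval of -0.65 to 0.76, which leaves room for a difference in either direction.

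**Figure D2:**
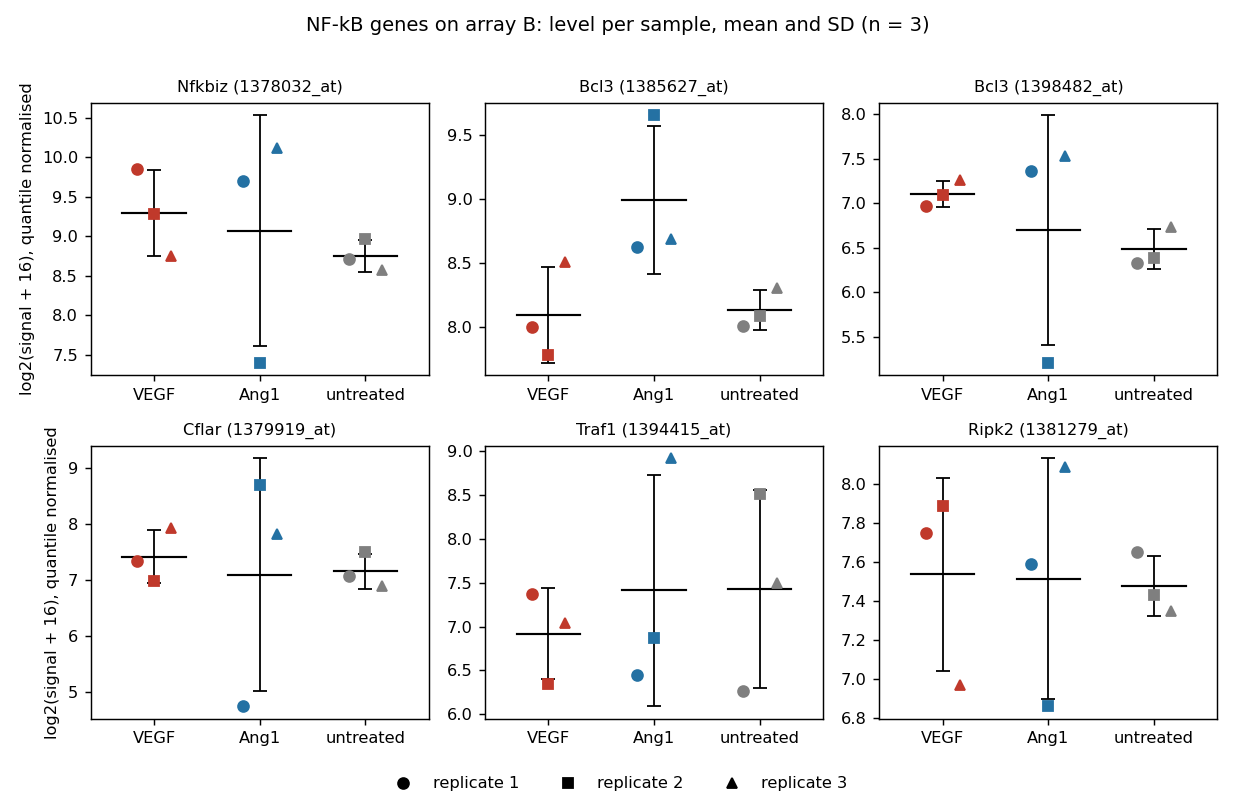
Levels of the 6 tested probe sets on array B in log2(signal + 16) on the vertical axes, which do not start at 0, with 1 point per sample, a line for the group mean and a bar for the SD (n = 3). The widest spread is within Ang1: Nfkbiz runs from 7.40 to 10.12 and Cflar from 4.75 to 8.70, and replicate 2 (squares) is the lowest Ang1 sample for Nfkbiz, Bcl3 1398482_at and Ripk2 and the highest for Bcl3 1385627_at and Cflar.

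Birc3 encodes cIAP2, a ubiquitin ligase that is recruited to tumour necrosis factor receptors and keeps cells alive after their activation. Its level was 7.59, 7.87 and 7.95 after VEGF, 7.96, 7.94 and 8.11 after Ang1, and 6.78, 7.72 and 7.30 in untreated rings. The 3 Ang1 samples lay within a narrow band above every untreated sample, and VEGF replicates 2 and 3 were also above them all. Ang1 exceeded untreated by 0.74 ± 0.30, a 1.67-fold higher level with an interval of 0.08 to 1.40 (unadjusted p = 0.032, adjusted p = 0.953, limma), and VEGF by 0.54 ± 0.30, 1.45-fold (unadjusted p = 0.10). The lowest of the 9 values was that of untreated replicate 1, the RNA labelled by 2 cycles, and without it the differences were 0.49 for Ang1 (unadjusted p = 0.142) and 0.29 for VEGF. Without the 2 libraries that stood apart they were 1.04 for Ang1 (unadjusted p = 0.00512) and 0.80 for VEGF (unadjusted p = 0.013).

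Cflar encodes FLIP, a catalytically inactive relative of caspase-8 that blocks death receptor signalling. Its probe set on array A, 1368545_at, read 7.08, 6.80 and 6.84 after VEGF, 6.75, 6.44 and 6.76 after Ang1, and 6.19, 6.94 and 5.90 without treatment. Untreated replicates 1 and 3 were below all 6 treated samples, and untreated replicate 2, a library that stood apart, was above 5 of them. The probe set was only just above the filter, at the 42.4th percentile, and its untreated mean of 6.34 lay under the cutoff. VEGF exceeded untreated by 0.57 ± 0.32 (1.48-fold, unadjusted p = 0.103) and Ang1 by 0.31 ± 0.32 (unadjusted p = 0.352). Without the 2 libraries that stood apart the differences were 0.88 (unadjusted p = 0.00382, adjusted p = 1, limma) for VEGF and 0.72 (unadjusted p = 0.0185) for Ang1. Leaving out untreated replicate 3 gave 0.34 (unadjusted p = 0.345) for VEGF and 0.09 (unadjusted p = 0.806) for Ang1.

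The Cflar probe set on array B, 1379919_at, read 7.34, 6.99 and 7.93 after VEGF, 4.75, 8.70 and 7.83 after Ang1, and 7.08, 7.50 and 6.89 in untreated rings. Its Ang1 samples spread the widest of the 3 groups, and all 3 overlapped. The differences of 0.26 ± 0.81 for VEGF and -0.06 ± 0.81 for Ang1 were smaller than their errors, and the Ang1 value was 1.12 without Ang1 replicate 1.

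Traf1 and Ripk2 encode signalling proteins, TRAF1 being an adaptor at tumour necrosis factor receptors and RIPK2 the kinase that passes on the signal of the intracellular sensors NOD1 and NOD2. Traf1 probe set 1394415_at read 7.37, 6.35 and 7.04 after VEGF, 6.45, 6.87 and 8.92 after Ang1, and 6.27, 8.52 and 7.50 without treatment, with full overlap of the groups. The differences were -0.51 ± 0.70 for VEGF and -0.02 ± 0.70 for Ang1, and without the 2 libraries that stood apart they were 0.03 and 0.82. Its second probe set, 1381441_at, was under the filter, with 4.77 to 5.46 after VEGF, 5.08 to 6.07 after Ang1 and 4.55 to 5.26 in untreated rings. Ripk2 read 7.75, 7.89 and 6.97 after VEGF, 7.59, 6.86 and 8.09 after Ang1, and 7.65, 7.43 and 7.35 in untreated rings. The Ripk2 groups overlapped, and the differences of 0.06 ± 0.38 and 0.04 ± 0.38 had intervals from -0.79 to 0.91 for VEGF and from -0.81 to 0.89 for Ang1.

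**Figure D3:**
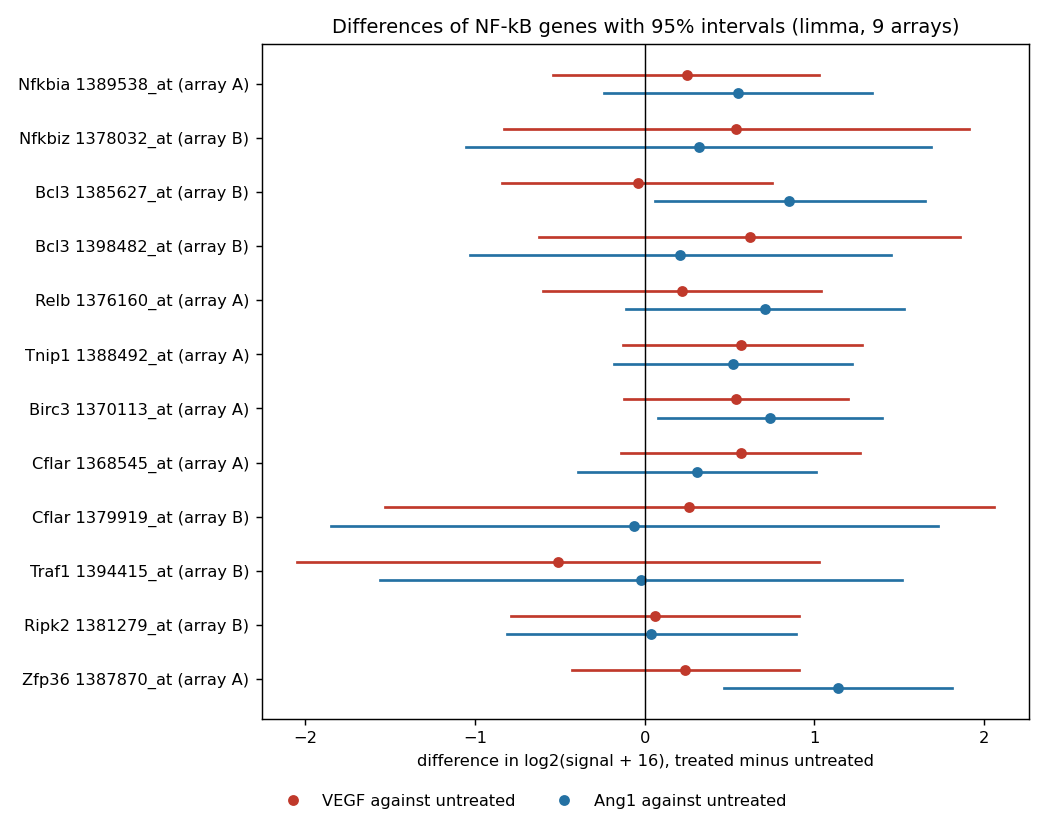
Differences of the 12 tested probe sets in log2(signal + 16), VEGF minus untreated and Ang1 minus untreated, as points with 95% intervals from limma. The intervals of Zfp36 (0.47 to 1.81), Birc3 (0.08 to 1.40) and Bcl3 1385627_at (0.06 to 1.65) after Ang1 lie above 0, the other 9 after Ang1 and all 12 after VEGF include 0, and both series share the untreated samples.

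Quality measures and cell type markers were compared between the groups as well. The ratio of 3′ to 5′ actin signal, a measure of RNA integrity and labelling, was 8.79, 9.12 and 12.4 in the VEGF samples, 8.29, 6.18 and 8.29 in the Ang1 samples and 4.34, 1.86 and 7.70 in the untreated samples on array A. All VEGF arrays were above all untreated arrays, on array B as well (5.24 to 11.9 after VEGF, against 3.02 to 5.08 in untreated rings). The same ratio for Gapdh overlapped, with 9.26 to 15.1 after VEGF against 1.70 to 11.9 in untreated rings on array A, and 7.73 to 13.6 against 4.65 to 13.6 on array B. The ratios of untreated replicate 2 and Ang1 replicate 2 came from low signals. Their 3′ actin signals on array A were 145.6 and 381, against 1253.8 to 1918.9 in the other samples. Their 3′ Gapdh signals there were 64.4 and 446.9, against 2217.8 to 3246.8. Of the macrophage markers 8 of 11 were on array A, with a summed signal of 10812.7 to 20275.3 after VEGF, 10330.7 to 26500.2 after Ang1 and 8973 to 15681.5 without treatment. These ranges overlapped, as did those of 8 of 10 endothelial markers on array A (1690.8 to 2364.1 after VEGF, 1447.1 to 2583.2 after Ang1 and 1149.2 to 2215.3 in untreated rings). The normalised centred levels of the macrophage markers were 0.31 to 0.42 after VEGF, wholly above Ang1 (-0.63 to 0.25), and -0.69 to 0.38 without treatment. Those of the mast cell markers Cpa3 and Tpsb2 on array A were also wholly higher after VEGF (0.07 to 0.41) than after Ang1 (-0.71 to 0.04), with -0.31 to 0.41 without treatment. T and B cell markers on array A summed to 131.5 to 248.3 after Ang1, wholly above untreated (92.9 to 123.7), and 106.4 to 205.8 after VEGF. Of these Cd3g alone passed the filter, and its centred levels overlapped. On array B the 3 of 10 endothelial markers present, of which Tek and Erg were tested, had a summed signal of 2393.2 to 3814.9 after VEGF and 1042.8 to 2565.9 after Ang1, all below the 3831 to 4620.3 of untreated rings. Summed signals are of deposited values, and on array B Ang1 replicate 3 was scaled to a trimmed mean of 94.8, against about 250 elsewhere, which lowers its sums. After quantile normalisation the mean centred level of Tek and Erg was -0.33 to 0.43 after VEGF and -1.22 to 0.01 after Ang1, against 0.09 to 0.52 in untreated rings, so that only the Ang1 samples stayed wholly below. Of 4 of 8 smooth muscle markers on array B, Des alone passed the filter, with centred levels of -1.16 to 0.26 after VEGF and 0.26 to 0.90 after Ang1, against -0.38 to -0.05 in untreated rings, so that it lay wholly higher after Ang1. The summed signal of the 4 overlapped (231 to 432.2 after VEGF, 98.8 to 607.1 after Ang1 and 293.4 to 320.1 without treatment), as did that of the smooth muscle markers on array A. Of the neutrophil markers 2 of 5 were on array A, both under the filter, with summed signals of 30 to 68.3 after VEGF, 14.7 to 92.8 after Ang1 and 16 to 54.7 without treatment. The part of these measures in the differences of the 10 genes was not tested.

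After Ang1 all 6 probe sets on array A were above their untreated means, by a median of 0.63, against a median of -0.03 over the 9520 probe sets tested, of which 47% were above 0. At an unadjusted p below 0.05, 2 of 6 were higher (Zfp36 and Birc3), against 1.08% of all probe sets. All 3 Ang1 values lay above all 3 untreated values for 3 of 6 (Zfp36, Birc3 and Relb), against 3.57% of all probe sets. The count of 2 became 1 without untreated replicate 1, untreated replicate 3, Ang1 replicate 1 or Ang1 replicate 3, with Zfp36 as the gene left each time, and 4 without the 2 libraries that stood apart (Zfp36, Birc3, Nfkbia and Cflar). The unadjusted p of Birc3 was also above 0.05 with median centring (0.0526) and with only the arrays of the 2 groups compared (0.0566, limma). The count of 3 became 6 without untreated replicate 2. On array B 4 of 6 were above 0 (49.2% of all probe sets), the median was 0.12, 1 of 6 was higher at an unadjusted p below 0.05 (Bcl3 1385627_at, 4.43% of all) and 1 of 6 did not overlap (the same probe set, 8.73% of all). That unadjusted count became 0 without any 1 of the 3 untreated replicates, without VEGF replicate 1 or with the replicate number as a block, and 2 without Ang1 replicate 1 or Ang1 replicate 2, while the count that did not overlap became 2 without Ang1 replicate 1 and 3 without Ang1 replicate 2. With untreated replicate 2 left out as well, the unadjusted count was again 2 (Nfkbiz and Bcl3 1398482_at). It was also 0 with values as deposited, with median centring and with only the arrays of the 2 groups compared. The unadjusted p of Bcl3 1385627_at was then 0.51 (difference 0.38), 0.118 and 0.0593 (limma).

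After VEGF all 6 on array A were above their untreated means as well, by a median of 0.39 against -0.01 over all probe sets, of which 49.2% were above 0. None had an unadjusted p below 0.05 (0.588% of all probe sets were higher at that level), and Tnip1 alone did not overlap with untreated (1 of 6, against 3.63% of all). With the replicate number as a block the unadjusted count over all probe sets was 294 in place of 157, and the count among the 6 was still 0. Without untreated replicate 2 the unadjusted count was 2, and without both libraries that stood apart it was 3 (Birc3, Cflar and Tnip1), while the count that did not overlap was 3 in both cases. The count that did not overlap was also 3 without VEGF replicate 1 and 2 without VEGF replicate 3. On array B 4 of 6 were above 0 (48.9% of all), by a median of 0.16. None had an unadjusted p below 0.05 (0.382% of all were higher), and 1 of 6 did not overlap (Bcl3 1398482_at, 2.53% of all). That probe set was only just above the filter, at the 41.5th percentile, and its untreated mean of 6.49 was the lowest of the 3 groups. Its place among the tested probe sets thus rested in part on its treated samples. The count that did not overlap became 2 without untreated replicate 2. Without Ang1 replicate 1, Ang1 replicate 3 or VEGF replicate 3 this Bcl3 probe set fell under the filter. The count was then 0 without either Ang1 replicate, and 2 without VEGF replicate 3, both of them other probe sets. The Ang1 and VEGF comparisons share the 3 untreated samples, so that a low untreated value, as for Birc3 in replicate 1, enters both.

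Set directly against Ang1, the VEGF samples were lower for 4 of 6 probe sets on array A, with a median difference of -0.25, and higher for 4 of 6 on array B, with a median of 0.12. Differences above 0 made up 52.2% and 52.4% of all probe sets. Lower at an unadjusted p below 0.05 were Zfp36 on array A (1 of 6, against 1.03% of all) and Bcl3 1385627_at on array B (1 of 6, against 4.58% of all). The VEGF samples lay wholly below the Ang1 samples for the same 2 probe sets (4.3% and 9.52% of all) and wholly above them for Cflar on array A (3.77% of all), by 0.26 ± 0.32 (unadjusted p = 0.436). For the other 9 tested probe sets the ranges overlapped. The unadjusted p of Zfp36 was 0.0534 without VEGF replicate 3.

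Across samples, the mean of the 6 centred array A levels was -0.15, 0.06 and 0.22 in the VEGF samples, 0.27, 0.38 and 0.28 in the Ang1 samples, and -0.47, -0.16 and -0.42 in the untreated samples. The Ang1 values lay close together and above all others, and the untreated values were the lowest 3. The same mean on array B was 0.18, -0.14 and 0.04 after VEGF, -0.29, -0.25 and 0.83 after Ang1, and -0.36, 0.12 and -0.14 in untreated rings. On array B the groups overlapped, and the high Ang1 value was that of replicate 3, the array scaled to another mean.

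**Figure D4:**
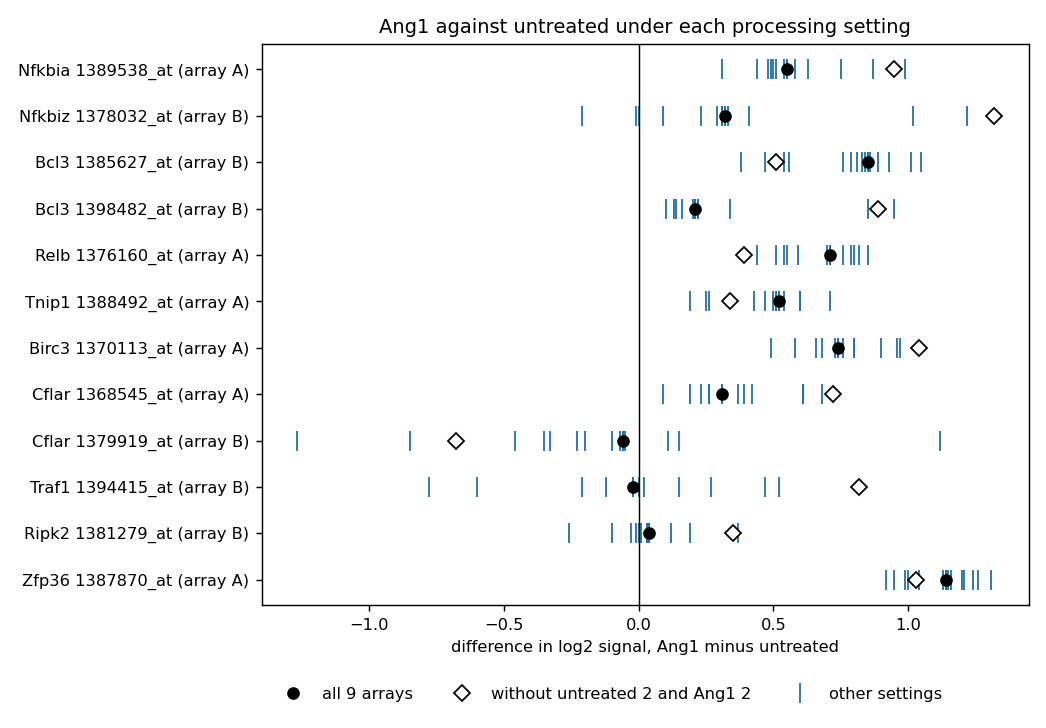
Difference of each tested probe set, Ang1 minus untreated in log2 units, with all 9 arrays (filled circles), without the 2 libraries that stood apart (open diamonds) and under the other settings (bars). Zfp36 stays between 0.92 and 1.31 and Birc3 between 0.49 and 1.04, whereas Nfkbiz runs from -0.21 to 1.32 and Cflar on array B from -1.27 to 1.12.

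Among other genes of the pathway, listed by role with earlier results of these data known, 50 of 69 had a probe set above the filter and were tested, and none passed the adjusted test in any comparison. At an unadjusted p below 0.05, 7 were higher and 1 was lower after Ang1 (median 0.07), and 5 were higher and none lower after VEGF (median 0.16). All 5 and all 7 of the higher ones belonged to the inflammatory targets, whose probe sets were on array A. There 0.588% of all probe sets were higher at that level after VEGF and 1.08% after Ang1. Tnf, Cxcl2 and Junb, counted in both, passed the filter only through their treated samples, as their untreated means lay under its cutoff. Of 14 tested inflammatory targets, 13 were above 0 after VEGF, by a median of 0.87, and 14 after Ang1, by a median of 1.04, against 49.2% and 47% of all probe sets on array A, and between VEGF and Ang1 none had an unadjusted p below 0.05 (median -0.23). The other 3 listed targets were under the filter: Nos2, which differed by 1.89 after VEGF and 1.07 after Ang1, Ptgs2, by 0.10 and 0.09, and the endothelial adhesion molecule gene Sele, by 0.63 and -0.67. The Sele values were wholly above untreated after VEGF and wholly below after Ang1. Of the subunits, 3 of 4 were tested. Nfkb2, the partner of Relb, was above every untreated value in both treated groups, by 0.49 ± 0.30 after VEGF and 0.55 ± 0.30 after Ang1 (unadjusted p = 0.134 and 0.0965). Nfkb1 differed by 0.40 after VEGF and -0.01 after Ang1, and Rela by 0.16 and -0.01. No gene of the other inhibitors (6 of 10 tested), the kinases and adaptors (17 of 21) or the death and survival proteins (5 of 9) had an unadjusted p below 0.05 against untreated after either treatment. Il1rap, the interleukin-1 receptor accessory chain and 1 of 5 tested receptors, was the lower one, by -1.58 ± 0.48 after Ang1 on array B (unadjusted p = 0.00724, adjusted p = 0.466, limma). Its probe set on array A, under the filter, overlapped and differed by 0.26.

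The 3 smallest unadjusted p among the pathway genes were those of Junb, a transcription factor gene, the cytokine gene Il1b and the chemokine gene Cxcl2 after VEGF, and of Il1b, Tnf and Cxcl2 after Ang1. Tnf, whose mRNA tristetraprolin is known to destabilise, on its brighter probe set read 7.10, 7.45 and 6.27 after VEGF, 8.19, 6.67 and 8.11 after Ang1, and 6.21, 5.66 and 5.35 without treatment. All treated samples were above all untreated ones, Ang1 by 1.92 ± 0.47, a 3.79-fold higher level (unadjusted p = 0.00191, adjusted p = 0.953, limma). The second, dimmer Tnf probe set was under the filter and overlapped, with differences of -0.13 after VEGF and -0.03 after Ang1. Il1b read 8.47, 8.32 and 7.87 after VEGF, 8.89, 8.41 and 8.81 after Ang1, and 6.85, 7.81 and 7.19 in untreated rings. It too did not overlap, with 0.94 ± 0.33 for VEGF (unadjusted p = 0.0162) and 1.42 ± 0.33 for Ang1 (unadjusted p = 0.00131, adjusted p = 0.953, limma). Cxcl2 differed by 1.33 ± 0.48 after VEGF and 1.84 ± 0.48 after Ang1 (unadjusted p = 0.0191 and 0.00297), and Junb by 1.15 ± 0.40 after VEGF (unadjusted p = 0.0159). Each of these differences was larger than that of any of the 12 tested probe sets of the 10 genes in the same comparison. That follows in part from the choice, as these genes were picked for their small p among the tested pathway genes. It also follows in part from the filter, which used the mean over all 9 arrays. The untreated means of Tnf (5.74), Cxcl2 (6.00) and Junb (6.34) lay under its cutoff. These 3 genes were therefore tested only because their treated samples were high.

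The genes whose 9 array A values ran closest to those of Nfkbia, by the root mean square difference of centred log2 levels, were Tob2 (0.21), Abcg1 (0.23) and Nxph1 (0.23), with a median of 0.6 over 8003 other named probe sets. Among the 10 genes Birc3 was the closest at 0.35, followed by Cflar at 0.45, Relb at 0.48, Tnip1 at 0.52 and Zfp36 at 0.63. Zfp36 was thus slightly farther from Nfkbia than the median probe set, although both had their highest mean after Ang1. A probe set with the same level in every sample would have been closer to Nfkbia than Cflar, Relb, Tnip1 and Zfp36 were. A distance under the median of 0.6 therefore does not show that a gene varied together with Nfkbia.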

How the data were processed

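The deposited values are signal intensities on a linear scale, 1 per probe set and array, which the authors computed with the MAS5 software according to the submitters' processing notes, whose version is not stated in the sources. Detection calls were not used. Genes were named from the platform annotation through the gene ID. Of the non-control probe sets 12783 on array A had 1 gene, 312 several and 2771 none, and on array B 7564, 100 and 7612. From these intensities log2(signal + 16) was computed. The 57 control probe sets of each type were left out, and the 9 arrays of a type were quantile normalised. Probe sets whose mean reached the 40th percentile were kept (9520 of 15866 and 9166 of 15276). All 3 comparisons were fitted on each array type in 1 model over the 9 arrays with limma 3.58.1 in R 4.3.3 (intensity trend, Benjamini-Hochberg adjustment over all kept probe sets, threshold 0.05), which was also tested on simulated data. The number of arrays limits the precision.

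The 10 genes, the pathway and marker lists and the tests were chosen with earlier results of these data known. All probe sets of the 10 genes are named. Of the pathway list the 3 genes with the smallest unadjusted p per comparison with untreated are named, with Nfkb1, Nfkb2, Rela and Il1rap added after their values were seen, and of the other genes the 3 nearest to Nfkbia. Nos2, Ptgs2 and Sele, the inflammatory targets under the filter, were also named outside this rule. By the design text each of 3 animals supplied all 3 groups, while the labels do not say which animal a replicate number stands for. Deviations of same-numbered samples from their group means correlated over 0.1 in every pair of VEGF with untreated and of Ang1 with untreated, so that the number was also fitted as a block. Of all 18 pairs, VEGF with Ang1 included, 14 did so (range -0.21 to 0.49). Both libraries that stood apart carried the number 2, and their pair on array A gave the highest value. Deviations within a group sum to 0, so that these 2 libraries also bear on the pairs with other numbers. Whether the correlations reflect shared animals was not tested. No 2 arrays held identical values. Alternatives were the pseudocount, normalisation, filter, block, arrays in the fit, trend, array weights and each library left out in turn. Promoter sequences are those of RefSeq (GRCr8).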

Additional observations from a re-analysis of the deposited data

How the results depend on the processing

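None of the 12 tested probe sets passed the adjusted threshold under any of the 20 alternatives. Zfp36 exceeded untreated after Ang1 by 0.92 to 1.31 (unadjusted p below 0.05 under 20 of 20, adjusted p 0.131 to 1), Birc3 by 0.49 to 1.04 (14 of 20, adjusted p 0.193 to 1) and Bcl3 1385627_at by 0.38 to 1.05 (10 of 20, adjusted p 0.255 to 0.908). VEGF minus Ang1 was -1.03 to -0.55 for Zfp36 (19 of 20) and -1.11 to -0.42 for Bcl3 1385627_at (13 of 20, adjusted p 0.151 to 0.96). Of 696 single values, 41 reversed in sign, mostly on array B.

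Over all probe sets, 0 passed the adjusted threshold in each comparison, but with array weights 6 (array A) and 2 (array B) did for Ang1 against untreated and 24 and 8 for VEGF against Ang1, and with values as deposited 117 and 25 on array B. Unadjusted counts moved by over 1.5 times under several settings, with ranges of 86 to 801 (VEGF against untreated), 176 to 1134 (Ang1 against untreated) and 98 to 1740 (VEGF against Ang1) on array A, and of 17 to 350, 515 to 1704 and 360 to 1658 on array B. Without quantile normalisation the median of all probe sets on array B moved to -0.29 for Ang1 against untreated and 0.35 for VEGF against Ang1 with values as deposited. With each array centred on its median it moved to -0.23 and 0.15 on array A and to -0.20 and 0.22 on array B.

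The median difference of the 6 probe sets on array A after Ang1 was 0.79 with values as deposited, 0.48 with median centring and 0.84 without the 2 libraries that stood apart. On array B it was 0.59 with the filter at the 60th percentile (2 probe sets left) and 0.66 without those 2 libraries, and for VEGF minus Ang1 -0.34 and -0.46. With values as deposited these array B medians were -0.06 and 0.39, and with array weights 0.38 and -0.27, against 0.12 for both. With 1 library left out it ranged, on array A, from -0.39 to -0.06 for VEGF minus Ang1, and on array B from -0.26 to 0.47 for Ang1 minus untreated, -0.86 to 0.31 for VEGF minus Ang1 and 0.01 to 0.30 for VEGF minus untreated.

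Reversed with array weights were Bcl3 1398482_at (-0.26) and Nfkbiz (-0.28) for VEGF minus Ang1, Relb for VEGF minus untreated (-0.09) and Traf1 for Ang1 minus untreated (0.15). Without the 2 libraries that stood apart, VEGF minus Ang1 reversed for Bcl3 1398482_at (-0.33), Nfkbiz (-0.64) and Ripk2 (-0.31), and Traf1 reversed to 0.82 for Ang1 and 0.03 for VEGF minus untreated. Ang1 minus untreated reversed for Cflar on array B with log2(signal + 64) (0.15), for Nfkbiz (-0.01) and Ripk2 (-0.10) with values as deposited and for Ripk2 with median centring (-0.01). The cause was not tested.

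With 1 library left out, values that changed sign ranged as follows. For VEGF against untreated these were Bcl3 1385627_at (-0.25 to 0.12), Relb (-0.16 to 0.50), Ripk2 (-0.12 to 0.34) and Traf1 (-1.09 to 0.03). For Ang1 against untreated these were Cflar on array B (-0.85 to 1.12), Nfkbiz (-0.21 to 1.22), Ripk2 (-0.26 to 0.37) and Traf1 (-0.78 to 0.52). For VEGF against Ang1 these were Bcl3 1398482_at (-0.34 to 0.48), Cflar on array B (-0.86 to 1.12), Nfkbiz (-0.65 to 0.75), Ripk2 (-0.31 to 0.31), Tnip1 (-0.13 to 0.35) and Traf1 (-0.98 to 0.26).

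The replicate block left every median as it was (0.63 and 0.12 for Ang1, 0.39 and 0.16 for VEGF against untreated on arrays A and B) and, beside the 2 changes given with the results, changed no other call. For VEGF against Ang1, where not every pair correlated, the unadjusted count on array A was 408 with the block and 189 without.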
